A study of Mus musculus with 6 samples.

Results

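The genes described here copy the genome and make its building blocks. A list of 42 genes of DNA replication and deoxynucleotide synthesis was matched by gene symbol, and all 42 were found among the 23231 genes with counts in at least 1 library. C2C12, a mouse myoblast line that leaves the cell cycle and fuses into myotubes when serum is withdrawn, was the host of all 6 cultures. Lentivirus was given at a multiplicity of infection of 100, puromycin at 2 μg/ml removed cells without it, and the cultures then stayed in 2% horse serum until day 5 of differentiation. Both groups carried dCas9-KRAB, a Cas9 without nuclease activity that is fused to a repressor domain. The 3 dCas9-KRAB libraries were the controls, and the 3 dCas9-KRAB-En5 libraries came from cells that also carried sgRNAs against Myog-En5, an enhancer of the myogenic factor gene *Myog*. The study compared the groups to learn what repression of Myog-En5 did to the transcriptome of differentiating cells. Each culture was a selected population of transduced cells, and nothing in the labels says whether the libraries of a group came from separate transductions, so p-values measure only the spread between these libraries.

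Replication starts at origins. ORC, CDC6 and CDT1 load the MCM2-7 helicase onto DNA before S phase, and CDC45 and the GINS complex then switch the helicase on. Polymerase alpha with primase lays down primers, polymerases epsilon and delta extend them on the sliding clamp PCNA, which the RFC complex loads, and RPA covers the exposed single strands. Ribonucleotide reductase, thymidylate synthase, thymidine kinase and dUTPase supply the deoxynucleotides. Many of these genes are known targets of E2F factors, which are active in cycling cells, and a myoblast that withdraws from the cell cycle to form a myotube is known to turn much of this set down.

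The promoters show what the genes share beyond their role. RefSeq's table for GRCm38.p6 gives 300 bases for each transcription start, from 250 before it to 50 after it, and holds 41 starts of 35 of the 42 genes; *Mcm4*, *Gins1*, *Gins2*, *Gins4*, *Prim2*, *Pole* and *Rfc2* had no entry. An E2F word was searched for as TTTCCCGC, TTTCGCGC, TTTGCCGC or TTTGGCGC on either strand, with overlapping matches counted. It was found in 15 of the 41 promoters (36.6%), against 744 of all 32851 promoters in the table (2.26%). CCAAT was present in 58.5% of the 41 and in 37.4% of all, and the GC box GGGCGG in 73.2% and 35.7%. For comparison, 1 of 27 promoters of 26 mitosis genes (3.7%) held an E2F word. CCAAT was present in 81.5% of these 27 and GGGCGG in 85.2%, both above the shares of the 41. A match is only a run of letters, and the count of such words says nothing of binding. The 250 bases before the start are shown for 3 genes, *Tyms* because it was the one gene that passed the test below, *Mcm5* because it had the highest level of the helicase subunits in dCas9-KRAB cells, and *Mcm6* because it had the most E2F words of the 35. Capitals mark E2F words and GC boxes, and none of the stretches overlaps an annotated exon of GENCODE.
Tyms, chr5:30073626-30073875, minus strand, GRCm38.p6: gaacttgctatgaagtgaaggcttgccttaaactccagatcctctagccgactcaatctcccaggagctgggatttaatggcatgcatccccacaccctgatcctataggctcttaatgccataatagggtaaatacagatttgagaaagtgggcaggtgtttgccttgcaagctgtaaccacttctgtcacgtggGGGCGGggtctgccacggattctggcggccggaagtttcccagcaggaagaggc
Mcm5, chr8:75109259-75109508, plus strand, GRCm38.p6: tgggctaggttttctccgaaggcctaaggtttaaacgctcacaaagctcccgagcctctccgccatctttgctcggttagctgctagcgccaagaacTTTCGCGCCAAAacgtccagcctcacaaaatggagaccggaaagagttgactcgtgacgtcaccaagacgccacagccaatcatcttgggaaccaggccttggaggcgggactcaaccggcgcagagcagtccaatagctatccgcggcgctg
Mcm6, chr1:128359706-128359955, minus strand, GRCm38.p6: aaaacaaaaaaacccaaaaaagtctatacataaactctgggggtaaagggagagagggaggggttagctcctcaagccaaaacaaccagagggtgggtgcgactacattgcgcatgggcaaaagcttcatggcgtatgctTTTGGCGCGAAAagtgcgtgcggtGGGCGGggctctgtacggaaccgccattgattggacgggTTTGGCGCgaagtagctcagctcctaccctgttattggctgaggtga
The capital run of *Mcm5* holds 2 overlapping E2F words and no GC box. *Mcm6* held 3 E2F words, 2 of them overlapping, and the *Tyms* stretch held a GC box and no E2F word.

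The 6 libraries held between 31831093 and 73988425 counts. *Myog*, the gene whose enhancer was targeted, had 43211, 68488 and 74845 counts in the dCas9-KRAB libraries and 12, 0 and 0 in the dCas9-KRAB-En5 libraries. Other muscle genes were lost with it, such as *Myod1*, at 33.8, 111 and 79.2 TPM against 0.0761, 0.0317 and 0 TPM. The counts of *Myog* thus cannot by themselves check the labels, and the cause of its loss was not tested. The 10 muscle markers summed to between 3751 and 8939 TPM (the deposited level, scaled to gene length and library total) in dCas9-KRAB cells and to between 8.22 and 15.7 TPM in dCas9-KRAB-En5 cells, where the marker list of the labelled cell type was thus nearly absent. Of 15 macrophage markers, 8 reached 10 TPM in every library, with sums of 3821 to 4654 TPM in dCas9-KRAB and 5463 to 8474 TPM in dCas9-KRAB-En5 cells, although *Mrc1* was at 0 throughout and *C1qa* stayed below 1 TPM. Among single macrophage markers, *Cd68*, *Adgre1* and *Fcgr3* were higher in every dCas9-KRAB-En5 library than in any control, and *Aif1* was lower in each. Of the 14378 genes tested below, 7.76% were higher and 19.7% lower in this way. *Cd14*, *Csf1r*, *Tyrobp*, *Itgam*, *Ptprc*, *Laptm5*, *Spi1* and *Fcer1g* overlapped between the groups. The sums leaned on single genes, such as *Cd14* with 3398 TPM in dCas9-KRAB-En5 replicate 1. The 7 fibroblast markers summed to 57.8 to 138 TPM and to 13.9 to 25.7 TPM. The part of these cell type markers in the values below was not tested, and in bulk RNA fewer cells of a type cannot be told apart from less RNA per cell. dCas9-KRAB-En5 replicate 3 stood apart, with 13991 genes listed against 17084 to 19395 in the other libraries and 28.2% of its counts in genes with ribosomal protein symbols, pseudogenes included, against 12.0% to 21.6%. Results that rest on it are given with and without it.

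All 42 genes passed the low-count filter of edgeR, whose quasi-likelihood test on the counts compared dCas9-KRAB-En5 with dCas9-KRAB over 14378 genes, and a gene was called where its adjusted p was 0.01 or less and its log2 fold change was 1 or more in size. *Tyms* fell, and it was the 1 gene of the 42 called lower, beside a background of 4.67% of all genes tested called lower (671 genes). None of the 42 was called higher by edgeR, beside a background of 1.52% (219 genes). With counts scaled to library totals alone the background was 516 genes lower and 70 higher. At an unadjusted p of at most 0.05, edgeR had 9 of the 42 genes lower, where the background was 16.3%, and 1 higher, where it was 16.6%. DESeq2 called *Tyms* lower, beside a background of 9.47%, and *Gins3* higher, beside 6.77%. The fit of limma on log2(TPM + 1) called neither, and over all 14378 genes it called 482 lower and only 32 higher.

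The direction of the estimates was less even than the calls. The log2 fold change was below 0 for 33 of the 42 genes, against 47.7% of all genes tested, and its median was -0.73 against 0.08. No test was run on the list, since its genes were chosen with results of these data known. With the libraries set in pairs by their replicate number, 28 of the 42 (66.7%) were lower in dCas9-KRAB-En5 in all 3 pairs, against 29.3% of all genes, and 4 were higher in all 3, *Gins3*, *Pold3*, *Pole* and *Rfc1*, against 29.2%. The median log2 ratio over the 42 was -0.55 in the pair numbered 1, -0.39 in the pair numbered 2 and -0.94 in the pair numbered 3. Spread within the groups was wide at the same time. The TPM of all dCas9-KRAB-En5 libraries lay below those of all dCas9-KRAB libraries for 7 of the 42 genes (*Orc6*, *Cdc45*, *Gins2*, *Rfc2*, *Rfc3*, *Rpa2* and *Tyms*), a share no higher than the background of 19.7%, and lay above them for none, where the background was 7.76%.

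**Figure D1:**
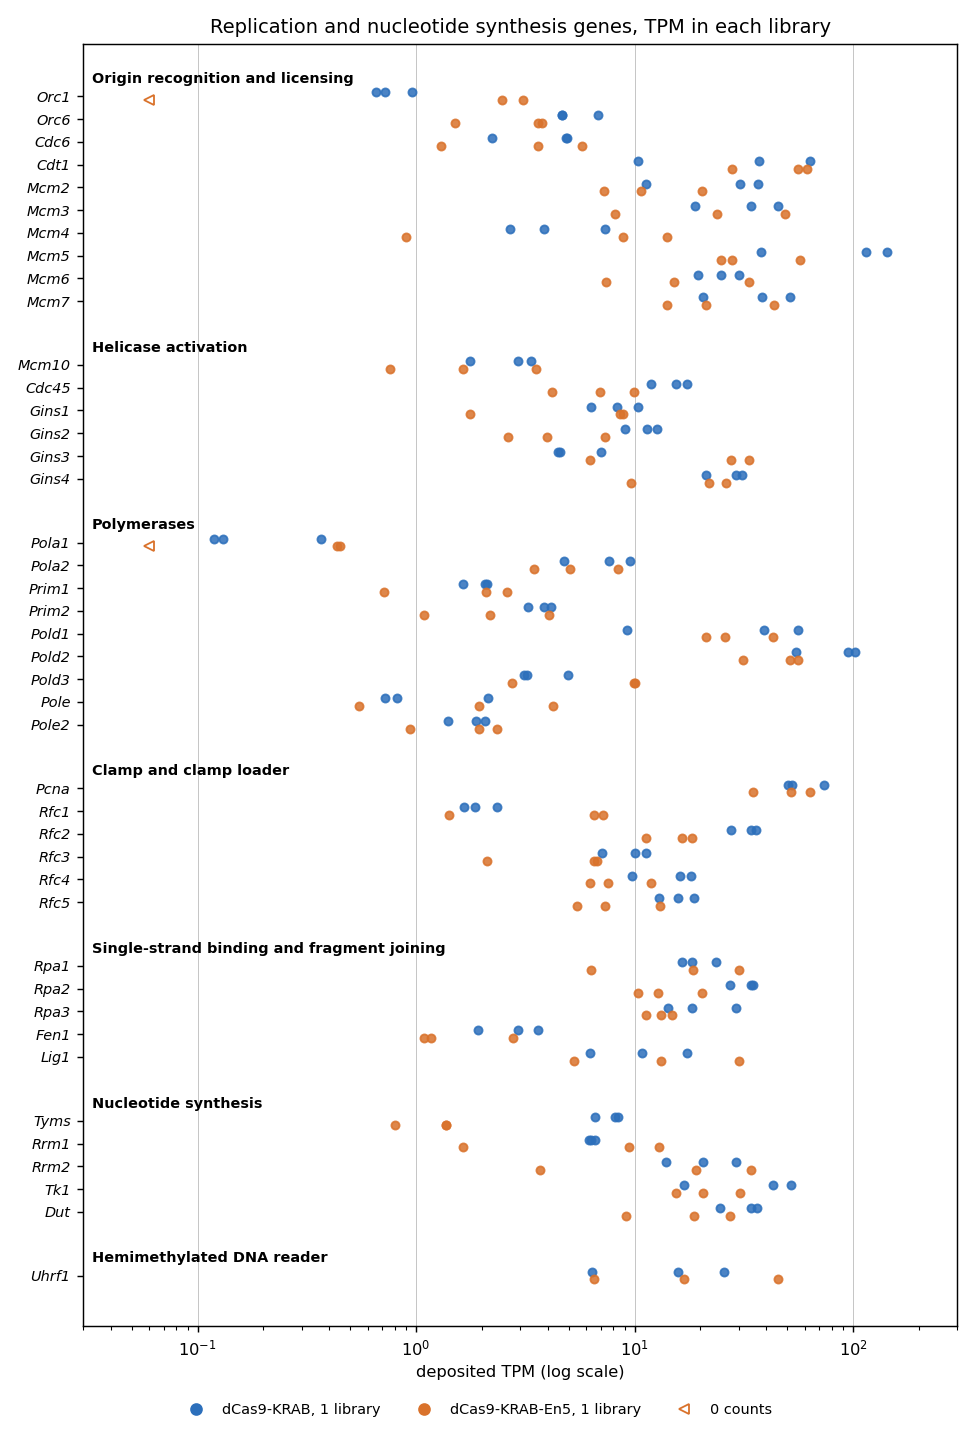
Deposited TPM (log axis) of each of the 42 genes in each library, with dCas9-KRAB in blue, dCas9-KRAB-En5 in orange and open triangles for 0 counts. The orange points of *Tyms* lie at 0.804 to 1.37 TPM, apart from the blue points at 6.59 to 8.40 TPM, while for most other genes the groups overlap.

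As a share of all counts, the 42 genes held 0.136%, 0.219% and 0.198% in the dCas9-KRAB libraries and 0.109%, 0.160% and 0.0908% in the dCas9-KRAB-En5 libraries. Their summed level was 581, 1007 and 866 TPM in dCas9-KRAB and 567, 860 and 353 TPM in dCas9-KRAB-En5 cells. These sums overlapped between the groups, since dCas9-KRAB replicate 1 lay below dCas9-KRAB-En5 replicate 2. Replication genes were thus measured in every library on day 5. In dCas9-KRAB-En5 replicate 3, *Orc1* and *Pola1* had 0 counts, where 3 counts would be 0.0942 CPM (counts scaled to the library total), a limit of counting error only.

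**Figure D2:**
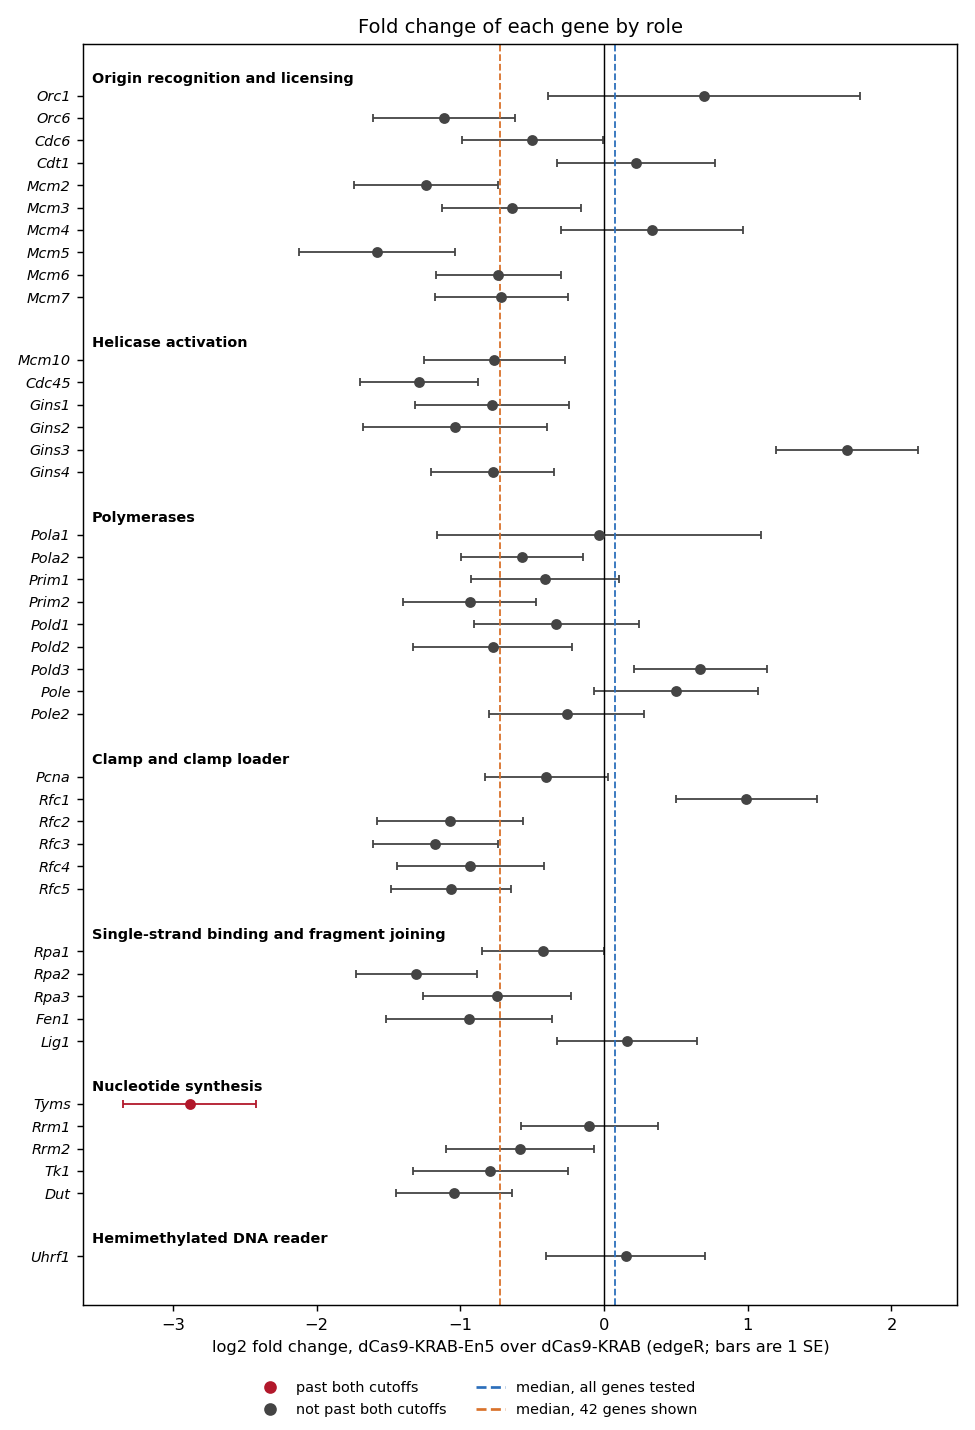
Log2 fold change of dCas9-KRAB-En5 over dCas9-KRAB by role, with bars of 1 SE from edgeR and dashed lines at the medians of all genes tested (0.08) and of the 42 genes (-0.73). *Tyms* at -2.89 is the 1 gene past both cutoffs, and *Gins3* at 1.69 has the highest estimate.

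Nucleotide synthesis held the one call. *Tyms* encodes thymidylate synthase, which makes dTMP from dUMP with a folate cofactor. Its level was 8.40, 6.59 and 8.10 TPM in dCas9-KRAB cells (7.70 ± 0.969, SD, n = 3) and 1.36, 1.37 and 0.804 TPM in dCas9-KRAB-En5 cells (1.18 ± 0.324, SD, n = 3). The groups did not overlap, and the gene was lower in each of the 3 pairs. The log2 fold change was -2.89 with an SE of 0.46, a 7.39-fold lower level with an adjusted p of 0.00208 from edgeR's quasi-likelihood test. An exact two-sided permutation test of the TPM gave p = 0.1, the smallest that 3 libraries against 3 allow. The call was lost when dCas9-KRAB replicate 1, dCas9-KRAB replicate 3 or dCas9-KRAB-En5 replicate 2 was left out and with limma on TPM, and over all alternatives the log2 fold change lay between -3.31 and -2.00 and the adjusted p between 4.9e-08 and 0.0336. The gene (ENSMUSG00000025747) lies on the minus strand of chromosome 5 at 30058202 to 30073617 in GRCm38, and 5.72% of its 50-base words also occur in other annotated transcripts.

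The other genes of nucleotide supply did not pass. *Dut*, the dUTPase that keeps uracil out of DNA, had 24.5, 36.1 and 34.0 TPM in dCas9-KRAB and 18.7, 27.2 and 9.08 TPM in dCas9-KRAB-En5 cells, with a log2 fold change of -1.04 (SE 0.40, adjusted p = 0.0953 from edgeR). *Tk1*, the thymidine kinase of cycling cells, had 16.9, 52.0 and 43.2 TPM against 15.4, 30.3 and 20.5 TPM, with a log2 fold change of -0.79. dCas9-KRAB replicate 1 was the low library of its group for both and overlapped the other group. *Rrm2*, the regulated subunit of ribonucleotide reductase, had 13.9, 29.0 and 20.6 TPM against 19.0, 34.1 and 3.67 TPM (log2 fold change -0.58). *Rrm1*, its catalytic partner, had 6.20, 6.61 and 6.31 TPM against 9.44, 12.9 and 1.64 TPM, with a log2 fold change of -0.10 although its mean TPM was higher in dCas9-KRAB-En5 cells. *Rrm1* was the steadiest of the 5 in dCas9-KRAB and spread widely in dCas9-KRAB-En5 cells, where replicate 3 lay far below the others. *Pola1* was the other gene of the 42 whose mean TPM and fitted fold change differed in sign. Within a library, where scaling plays no part, the TPM of *Tyms* over that of *Dut* was 0.344, 0.182 and 0.238 in dCas9-KRAB and 0.0730, 0.0502 and 0.0885 in dCas9-KRAB-En5 cells. The ratio of *Tyms* to *Tk1* also did not overlap, at 0.498, 0.127 and 0.188 against 0.0885, 0.0450 and 0.0392. *Tyms* thus stood lower against *Dut* and *Tk1* in every dCas9-KRAB-En5 library than in any control. These ratios were looked at after the call of *Tyms* was known, largely restate its fold change and carry no test. Differences between libraries by gene length or GC content stay in such ratios.

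The 6 subunits of the MCM2-7 helicase, which are needed in equal numbers in the finished ring, had unequal RNA levels. *Mcm5* was the highest in each dCas9-KRAB library, at 37.9, 143 and 115 TPM, and had 27.9, 56.8 and 24.9 TPM in dCas9-KRAB-En5 cells. *Mcm4* was the lowest in every library, with 2.69, 7.33 and 3.86 TPM in dCas9-KRAB and 8.84, 14.1 and 0.901 TPM in dCas9-KRAB-En5 cells. Both groups overlapped for each of these subunits, with dCas9-KRAB replicate 1 low and dCas9-KRAB-En5 replicate 2 high. *Mcm2* had 11.2, 36.6 and 30.3 TPM against 10.7, 20.4 and 7.23 TPM. *Mcm3* had 18.8, 45.3 and 34.1 TPM against 23.8, 48.6 and 8.16 TPM. *Mcm6* had 19.4, 30.1 and 24.8 TPM against 15.1, 33.3 and 7.42 TPM, and *Mcm7* had 20.6, 51.6 and 38.2 TPM against 21.3, 43.6 and 14.0 TPM. In both groups replicate 2 was the highest library for these 4 subunits.

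In edgeR the log2 fold change was -1.58 (SE 0.55, adjusted p = 0.0672) for *Mcm5* and -1.24 (SE 0.50, adjusted p = 0.106) for *Mcm2*, and neither passed. It was -0.74 for *Mcm6*, -0.72 for *Mcm7*, -0.64 for *Mcm3* and 0.33 for *Mcm4*. Their summed level was 111, 314 and 246 TPM in dCas9-KRAB and 108, 217 and 62.6 TPM in dCas9-KRAB-En5 cells. *Mcm4* stood higher against its partners in 2 of 3 dCas9-KRAB-En5 libraries, and its TPM over that of *Mcm5* was 0.0709, 0.0513 and 0.0337 in dCas9-KRAB and 0.317, 0.248 and 0.0362 in dCas9-KRAB-En5 cells. The ratio in dCas9-KRAB-En5 replicate 3 lay within the range of the controls. *Mcm7* shares exon sequence with *Ap4m1*, *Cops6* and the microRNAs *Mir25* and *Mir93*, and 23.3% of its 50-base words occur in other transcripts, so its value is uncertain where the counting could split reads.

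The genes that load the helicase were mixed. *Orc6*, an ORC subunit, had a log2 fold change of -1.12 (SE 0.49, adjusted p = 0.139 from edgeR) and lay lower in all dCas9-KRAB-En5 libraries, at 1.5 to 3.77 TPM against 4.66 to 6.76 TPM. *Orc1*, the cell cycle regulated ORC subunit, had a log2 fold change of 0.69 with an SE of 1.09, the second widest of the 42. Its level was 0.653 to 0.953 TPM in dCas9-KRAB, 2.47 and 3.07 TPM in dCas9-KRAB-En5 replicates 1 and 2 and 0 in replicate 3. Without replicate 3 its log2 fold change was 1.19 (adjusted p = 0.0733), while the replicate block gave -0.08. *Cdc6* had -0.50 and *Cdt1* 0.22, with *Cdt1* at 10.3, 63.6 and 37.2 TPM in dCas9-KRAB and 56.1, 61.2 and 27.9 TPM in dCas9-KRAB-En5 cells. *Cdt1* was the highest of the 42 genes in dCas9-KRAB-En5 replicate 1, and in dCas9-KRAB replicate 1 it lay below every other library.

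Helicase activation held the most uneven complex. GINS is made of 4 different subunits, and the log2 fold change was -0.78 for *Gins1*, -1.04 for *Gins2*, 1.69 for *Gins3* and -0.77 for *Gins4*. *Gins3* had 7.02, 4.44 and 4.56 TPM in dCas9-KRAB (5.34 ± 1.46, SD, n = 3) and 33.4, 27.5 and 6.23 TPM in dCas9-KRAB-En5 cells (22.4 ± 14.3, SD, n = 3). In edgeR its SE was 0.49 and its adjusted p 0.0370, which missed the cutoff of 0.01. DESeq2 called it with an adjusted p of 0.00945, and so did edgeR without dCas9-KRAB-En5 replicate 3 (log2 fold change 1.89, adjusted p = 0.00408). Over all alternatives run, the log2 fold change of *Gins3* lay between 1.36 and 2.04 and its adjusted p between 0.00381 and 0.179.

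The ratio of *Gins3* to its partners separated the groups. Its TPM over that of *Gins1* was 0.842, 0.701 and 0.439 in dCas9-KRAB and 3.78, 3.20 and 3.54 in dCas9-KRAB-En5 cells. Over *Gins4* it was 0.225, 0.209 and 0.157 against 1.53, 1.05 and 0.647. Over *Gins2* it was 0.777, 0.391 and 0.358 against 12.7, 6.93 and 0.851, which also did not overlap although dCas9-KRAB-En5 replicate 3 came near the controls. These ratios were looked at after the fold changes were known and carry no test. Differences between libraries by gene length or GC content stay in them. *Gins3* has 2709 exon bases, against 1516 for *Gins1*, 4097 for *Gins2* and 1349 for *Gins4*. *Gins2* overlaps *Gse1* on the opposite strand, and 65.4% of its 50-base words occur in transcripts of that gene, so reads of the pair may be mixed unless the counting used strand. *Cdc45*, the partner of GINS in the active helicase, had 11.8, 17.3 and 15.4 TPM against 6.96, 9.89 and 4.19 TPM without overlap (log2 fold change -1.29, SE 0.41, adjusted p = 0.0521 from edgeR). *Mcm10*, which helps to start unwinding, had a log2 fold change of -0.76.

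Polymerase subunits were on both sides of 0, with 7 of 9 below it and a median of -0.33. *Pola1*, the catalytic subunit of polymerase alpha, was the lowest of the 42 genes, with 0.119 to 0.368 TPM in dCas9-KRAB and 0 to 0.448 TPM in dCas9-KRAB-En5 cells, and its log2 fold change of -0.04 had an SE of 1.13. Its partners had -0.57 (*Pola2*), -0.41 (the primase subunit *Prim1*) and -0.94 (*Prim2*). For polymerase delta, the catalytic subunit *Pold1* had -0.33, the accessory subunit *Pold2* -0.78 and *Pold3* 0.67. *Pold2* had 54.5, 102 and 95.1 TPM in dCas9-KRAB and 31.3, 51.3 and 56.2 TPM in dCas9-KRAB-En5 cells, so its groups overlapped, with the lowest control just under the highest dCas9-KRAB-En5 value. For polymerase epsilon, the catalytic subunit *Pole* had 0.50 and *Pole2* -0.26. *Pold1* spread widely in dCas9-KRAB, at 9.21, 55.8 and 39.2 TPM.

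The clamp *Pcna* was among the highest of the genes in both groups, with 50.4 to 73.5 TPM in dCas9-KRAB and 35.0 to 63.7 TPM in dCas9-KRAB-En5 cells and a log2 fold change of -0.40 (SE 0.43, adjusted p = 0.552 from edgeR). A pseudogene, *Pcna-ps2*, shares much of its sequence, and 19.1% of the 50-base words of *Pcna* occur elsewhere. Its loader has a large subunit, RFC1, and 4 small ones. *Rfc1* had 2.34, 1.87 and 1.65 TPM in dCas9-KRAB and 7.14, 6.52 and 1.41 TPM in dCas9-KRAB-En5 cells, a log2 fold change of 0.99 (SE 0.49, adjusted p = 0.185). The small subunits were all on the other side. *Rfc2* had 27.6, 34.0 and 35.8 TPM against 11.3, 18.3 and 16.5 TPM. *Rfc3* had 7.07, 11.2 and 10.1 TPM against 6.52, 6.75 and 2.11 TPM. Neither pair of groups overlapped. *Rfc4* had 18.1, 9.71 and 16.1 TPM against 11.8, 7.58 and 6.27 TPM, and *Rfc5* had 12.9, 18.7 and 15.7 TPM against 7.33, 13.1 and 5.44 TPM.

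None of the 4 small subunits passed in edgeR, with log2 fold changes of -1.07 for *Rfc2*, -1.17 for *Rfc3*, -0.93 for *Rfc4* and -1.07 for *Rfc5* and adjusted p from 0.0820 to 0.229. The ratios of *Rfc1* to the small subunits were looked at after the fold changes were known and carry no test. Differences between libraries by gene length or GC content stay in them. *Rfc1* has 6021 exon bases, against 6303 for *Rfc2*, 3611 for *Rfc3*, 1533 for *Rfc4* and 4669 for *Rfc5*. The TPM of *Rfc1* over that of *Rfc3* was 0.331, 0.166 and 0.164 in dCas9-KRAB and 1.09, 0.967 and 0.669 in dCas9-KRAB-En5 cells. Over *Rfc5* it was 0.182, 0.0997 and 0.105 against 0.974, 0.499 and 0.259. The ratio to each of the 4 small subunits was higher in every dCas9-KRAB-En5 library than in every dCas9-KRAB library, most narrowly over *Rfc2*, at 0.0851 in dCas9-KRAB-En5 replicate 3 against 0.0848 in dCas9-KRAB replicate 1. Exons of *Rfc2*, *Rfc4* and *Rfc5* overlap those of *Lat2*, *Eif4a2* and *Wsb2* on the opposite strand, and 9.14% to 16.0% of the 50-base words of these 3 genes occur in other transcripts.

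RPA, which coats single-stranded DNA, has 3 subunits. *Rpa2* had 27.4, 34.6 and 34.3 TPM in dCas9-KRAB and 12.7, 20.3 and 10.3 TPM in dCas9-KRAB-En5 cells without overlap, and its log2 fold change was -1.31 (SE 0.42, adjusted p = 0.0526 from edgeR). *Rpa1* had -0.43 and *Rpa3* -0.74, and their groups overlapped. *Lig1*, the ligase that seals Okazaki fragments, had 0.16. *Fen1*, the flap nuclease that trims them, had -0.94 at only 1.08 to 3.63 TPM, and 76.7% of its 50-base words lie in *Gm10143* and *Tmem258*, which overlap it on the opposite strand, so its value is uncertain. *Uhrf1*, the reader of hemimethylated DNA that brings the maintenance methyltransferase to new strands, had a log2 fold change of 0.15 and levels of 6.39 to 25.6 TPM in dCas9-KRAB and 6.49 to 45.1 TPM in dCas9-KRAB-En5 cells.

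Leaving out dCas9-KRAB-En5 replicate 3 raised the count of calls the most. Of the 42 genes, 34 had their lowest TPM of all 6 libraries there. Without it, edgeR called 6 of the 42 lower, where the background was 14% of 15265 genes, and 1 higher, where it was 11.7%. The 6 were *Tyms* (log2 fold change -3.13), *Gins2* (-2.39), *Rfc2* (-1.78), *Pold2* (-1.66), *Rpa2* (-1.60) and *Cdc45* (-1.45), and the 1 was *Gins3* (1.89). Their adjusted p ranged from 0.000423 for *Tyms* to 0.00969 for *Cdc45*. *Mcm5* then had -1.85 (adjusted p = 0.0185) and *Rfc1* 1.18 (adjusted p = 0.0311). The median over the 42 was -0.69, close to the value with all libraries, and 31 were below 0. *Gins2* and *Pold2*, whose values in replicate 3 lay above those of the other 2 dCas9-KRAB-En5 libraries, moved the most of the 7. With the replicate number as a block, *Tyms* was again the 1 gene called (adjusted p = 0.000433), beside backgrounds of 6.79% lower and 3.94% higher, while over all genes the count called higher went from 219 to 567.

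Exon length, as the counts over the TPM imply it, ran from 1136 bases (*Rpa3*) to 11160 bases (*Pole*) among the 42, with a median of 4045 bases against 3910 bases over all genes tested. Across all genes the log2 fold change went with length (Spearman's rho 0.26, n = 14378 genes), and its median was -0.01 for exons up to 1000 bases, a class with none of the 42, and then climbed from -0.44 for 1000 to 2000 bases to 0.91 above 8000 bases. Across the 42 genes the correlation was weaker (rho 0.12, Pearson's r 0.10 with log2 length, n = 42). Genes share the 6 libraries and are no independent replicates, so no p is given. The median of the genes of the list lay below that of all genes in each of the 7 length classes that held any of them, although single genes such as *Gins3* and *Rfc1* lay above it. For exons of 6000 to 8000 bases, where the median of all genes was 0.52, 4 of the 5 genes (*Tyms*, *Mcm2*, *Rfc2* and *Mcm10*) were below 0 and *Rfc1* was above it. For exons above 8000 bases the median of *Pola1*, *Pola2*, *Pole* and *Rrm1* was -0.07 against 0.91. Short genes were no exception, with 5 of 5 below 0 between 1000 and 2000 bases, where all genes had -0.44. An offset that removes each library's trend with length left 33 genes below 0, a median of -0.61 and *Tyms* as the 1 call, and turned the rank correlation to -0.45. Genes with estimates below 0 were thus found at every length, and with the offset the long gene *Pole* went from 0.50 to -0.36.

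**Figure D3:**
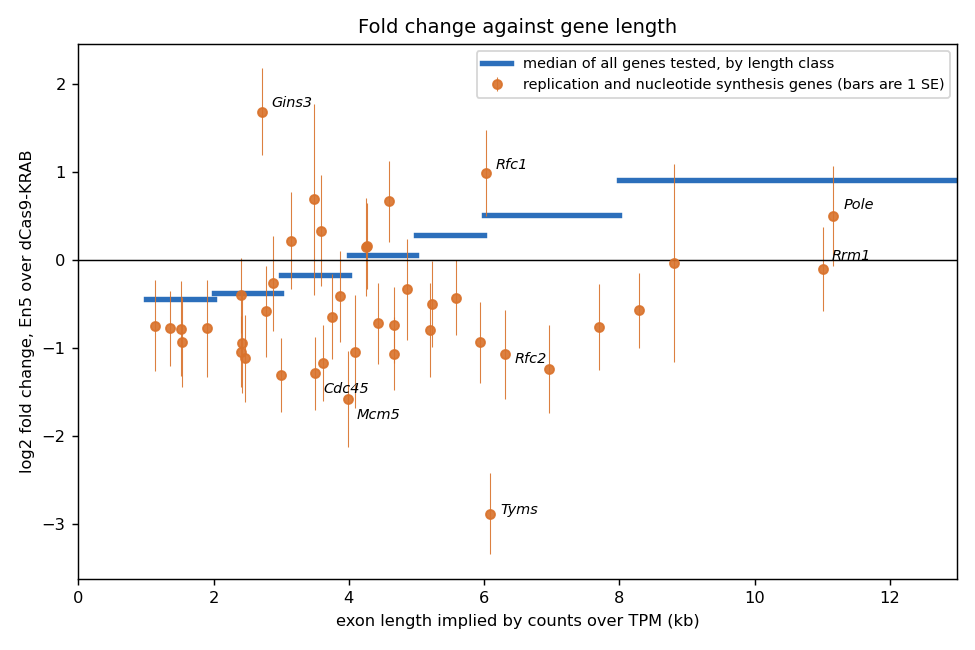
Log2 fold change of the 42 genes (orange, bars of 1 SE) against exon length in kb, with the median of all genes tested in blue for each length class that holds any of the 42; the last class is open and is drawn to the right edge. The blue steps rise from -0.44 to 0.91 with length, and most orange points lie below the step of their class.

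The libraries of a group differed from each other along base composition. For each gene the log2 of the normalized CPM, with 0.05 added, was taken as a deviation from its group mean and set against the GC content of its longest annotated transcript. Across the 42 genes the rank correlation was -0.69, 0.63 and 0.58 in dCas9-KRAB replicates 1, 2 and 3 and -0.66, -0.02 and 0.33 in dCas9-KRAB-En5 replicates 1, 2 and 3. All 14340 genes with a GC value gave -0.66, 0.45 and 0.54 and -0.47, -0.14 and 0.34, so the replication genes followed the libraries at large. GC-rich members such as *Pold1* (61.0% GC) and *Cdt1* (57.8%) were low in dCas9-KRAB replicate 1 and AT-rich ones such as *Rpa3* (34.2%) and *Pola1* (41.5%) were high there. The fold change between the groups went little with GC content over the 42 (rho -0.10, against -0.21 over all genes). The log2 ratio of replicate 2 over replicate 1 in dCas9-KRAB went with that in dCas9-KRAB-En5 cells across the 42 genes (Spearman's rho 0.73, Pearson's r 0.69), against a rho of 0.40 over all genes, and 34 of the 42 had the same sign. Offsets for GC content and length together left 33 genes below 0 with a median of -0.61, and with them edgeR called *Tyms* lower, where the background was 6.11%, and *Gins3* higher, where it was 3.42%.

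**Figure D4:**
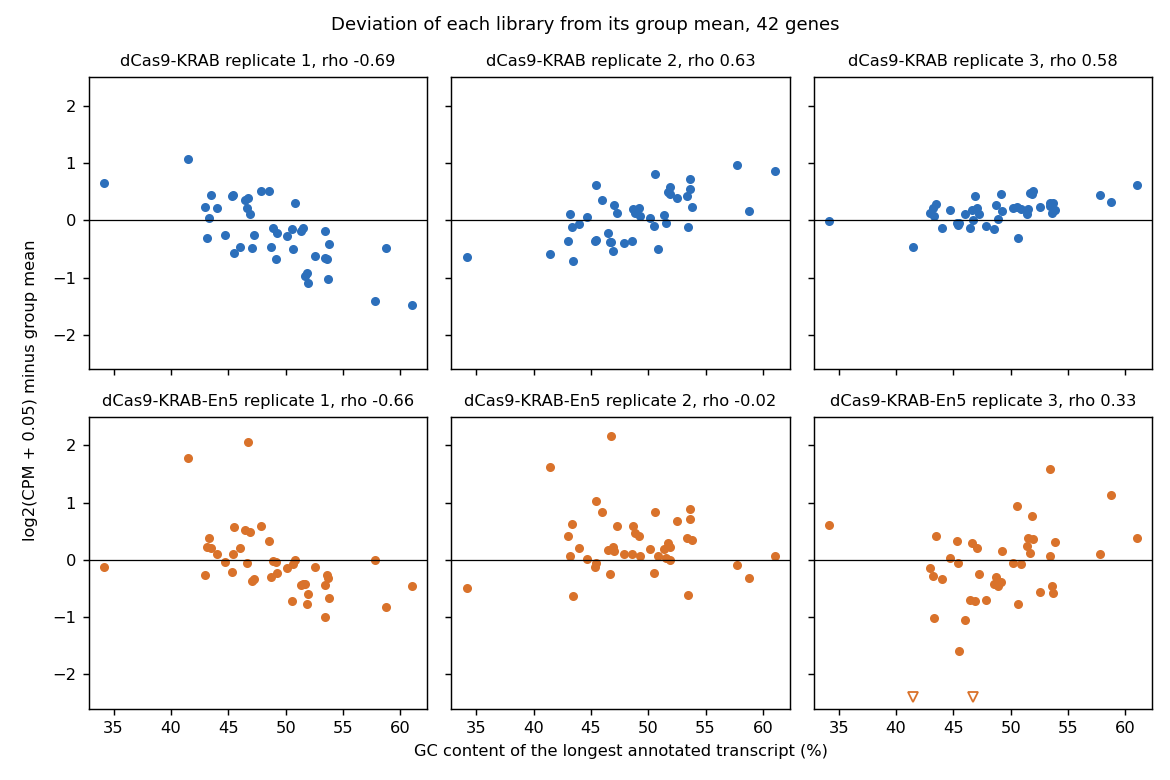
Deviation of each library from its group mean, in log2(CPM + 0.05), for each of the 42 genes against the GC content of its longest annotated transcript, with Spearman's rho above each panel; open triangles are *Orc1* and *Pola1*, with 0 counts, drawn at the lower edge. The points fall with GC content in replicate 1 of both groups (rho -0.69 and -0.66) and climb in dCas9-KRAB replicates 2 and 3 (0.63 and 0.58).

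E2F words did not mark the genes with the lower estimates. Of the 15 genes with a word in a promoter, 9 had a log2 fold change below 0, with a median of -0.26. Of the 20 without one, 19 were below 0, with a median of -0.78. Among the genes with the word were *Gins3*, *Orc1*, *Pold3*, *Cdt1*, *Lig1* and *Uhrf1*, all with estimates above 0, and *Mcm3*, *Mcm5*, *Mcm6* and *Mcm7*, all below it. No test was run on this split, which was made after the fold changes were known.

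Other genes of the pathway, listed by role, did not share one direction. Of 34 other replication genes, 17 were below 0 with a median log2 fold change of 0.05, and none was called by edgeR (3 lower and 2 higher at an unadjusted p of at most 0.05; 1 lower by DESeq2, 0 by limma). The smallest p were those of *Dbf4*, the activator of the CDC7 kinase (2.12, SE 0.68, adjusted p = 0.0532), *Dscc1*, a subunit of an alternative clamp loader (-3.11, SE 1.06, adjusted p = 0.0637), and *Asf1b*, a histone chaperone (-1.36, SE 0.47, adjusted p = 0.0681). *Dscc1* had 100, 104 and 115 counts in dCas9-KRAB and 6, 21 and 0 in dCas9-KRAB-En5 cells, and DESeq2 called it. For this list and the lists below, the background at that unadjusted p was 16.3% lower and 16.6% higher. It was 4.67% and 1.52% for edgeR calls and 9.47% and 6.77% for DESeq2 calls. For limma it was 482 genes lower and 32 higher of 14378, so a count of 0 higher says little about a short list.

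Of 20 other genes of nucleotide metabolism, 15 were below 0 with a median of -0.57, the side of the nucleotide genes above, and none was called by edgeR (6 lower and 0 higher at an unadjusted p of at most 0.05; 1 lower by DESeq2, 0 by limma). *Shmt2*, the mitochondrial serine hydroxymethyltransferase that feeds one-carbon units to folate, had 261, 790 and 616 TPM in dCas9-KRAB and 69.5, 132 and 104 TPM in dCas9-KRAB-En5 cells without overlap. Its log2 fold change was -2.43 (SE 0.60, adjusted p = 0.0193 from edgeR). With the replicate block edgeR called *Shmt2* and *Nme2* lower, beside a background of 6.79%. *Nme1*, a nucleoside diphosphate kinase, had -1.50 (adjusted p = 0.0400), and *Umps*, which makes UMP, had -1.30 (adjusted p = 0.0465).

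The regulators of S phase and the mitosis genes had medians above 0. Beside the counts below, the background called higher was 16.6% at an unadjusted p of at most 0.05 in edgeR. For DESeq2 calls it was 6.77%, and for limma it was 32 of 14378 genes, so the limma counts of 0 below say little. Of 21 regulators tested of 22 listed, 7 were below 0, with a median of 0.62, and none was called by edgeR (0 lower and 6 higher at an unadjusted p of at most 0.05; 1 higher by DESeq2, 0 by limma). *Cdc25a*, the phosphatase that activates CDK2, had 1.90 (SE 0.50, adjusted p = 0.0244), *Rb1*, the retinoblastoma protein gene, had 2.13 (SE 0.69, adjusted p = 0.0532), and *E2f3* had 1.58 (SE 0.55, adjusted p = 0.0698). Of 30 mitosis genes, 23 were above 0, with a median of 0.83, and none was called by edgeR (0 lower and 6 higher at an unadjusted p of at most 0.05; 2 higher by DESeq2, 0 by limma). *Mki67*, the Ki-67 proliferation antigen, had 1.97 (SE 0.55, adjusted p = 0.0313), the spindle checkpoint kinase gene *Bub1* had 2.30 (SE 0.67, adjusted p = 0.0363), and the centromeric histone gene *Cenpa* had 1.10 (SE 0.45, adjusted p = 0.109).

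With the length offset the medians were 0.16 for the regulators, 0.53 for the mitosis genes, -0.48 for the other nucleotide genes and -0.09 for the other replication genes, which thus changed sign. Taken as sums within a library, the 42 replication and nucleotide genes held 1.74, 1.74 and 1.85 times the TPM of the 30 mitosis genes in dCas9-KRAB and 0.967, 0.808 and 1.03 times in dCas9-KRAB-En5 cells. The groups did not overlap, dCas9-KRAB-En5 replicate 3 included, and the ratio was steadier than either sum. The sums lean on abundant genes. *Mcm5* gave 143 of the 1007 TPM of the 42 in dCas9-KRAB replicate 2. *Cdc20* gave 148 of the 1064 TPM of the mitosis genes in dCas9-KRAB-En5 replicate 2, where *Mki67* gave 5.60. The ratio thus need not hold for most genes of either list. It was computed after both medians were known and was not tested. Without dCas9-KRAB-En5 replicate 3, edgeR called 5 mitosis genes (*Anln*, *Bub1*, *Kif23*, *Mki67* and *Tpx2*) and 5 regulators (*Cdc25a*, *Cdkn1b*, *E2f3*, *Rb1* and *Rbl2*) higher, beside a background of 11.7%. It then also called 4 of the other nucleotide genes (*Dtymk*, *Nme1*, *Nme2* and *Shmt2*) and 2 of the other replication genes (*Asf1b* and *Rnaseh2a*) lower, beside a background of 14%, and *Dbf4* higher. With the replicate block, *Bub1* was the 1 mitosis gene called, beside a background of 3.94% called higher.

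**Figure D5:**
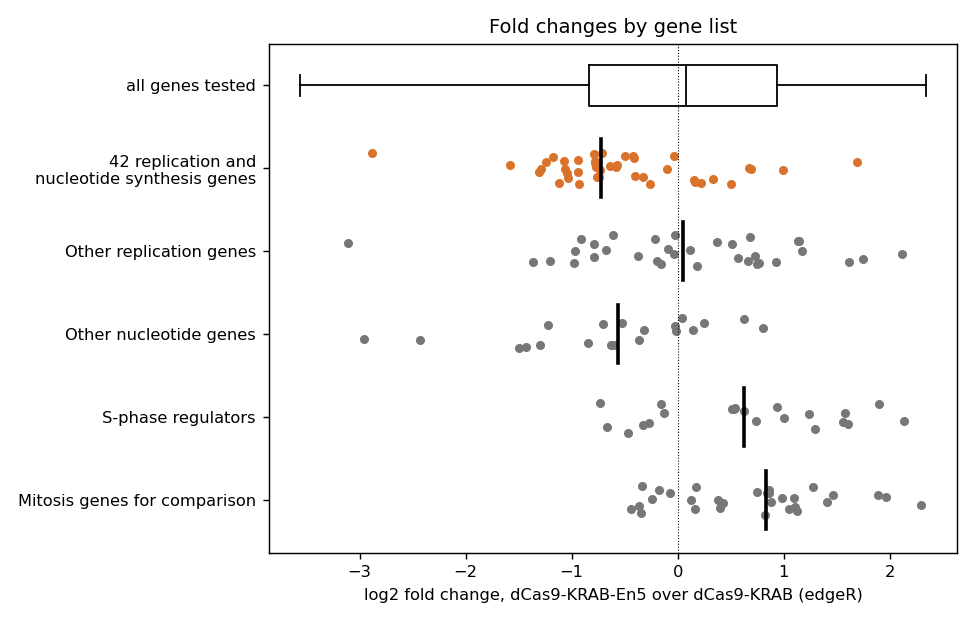
Log2 fold change of dCas9-KRAB-En5 over dCas9-KRAB for each gene of the 5 lists (points, spread vertically for display) with the median as a bar, beside all 14378 genes tested as a box of quartiles with whiskers from the 5th to the 95th percentile. The replication and nucleotide synthesis genes centre on -0.73 and the mitosis genes on 0.83.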

How the data were processed

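Poly(A) RNA-Seq libraries of differentiated C2C12 cells were grouped by sample title, 3 of dCas9-KRAB and 3 of dCas9-KRAB-En5. Per the submitters' processing notes, the authors used HISAT2 2.2.1 on GRCm38 and featureCounts, and the deposited counts are raw whole reads for each gene. The deposited TPM were made by the authors from these counts and gene length. Strand setting and annotation release are not given in the sources used here. Unlisted genes were taken as 0, and 23155 of 23231 genes were matched to a symbol in GENCODE vM21. The implied length lay within 1% of the annotated exon length for 98.62% of genes with counts in all libraries.

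Counts were normalized by TMM, filtered with filterByExpr (minimum count 10, minimum total 15) and tested with the quasi-likelihood test of edgeR 4.0.16 in R 4.3.3, group alone in the model, Benjamini-Hochberg adjustment over all genes; SE were derived from the F statistic. Fits were tested on simulated data. Alternatives were DESeq2 1.42.0, limma 3.58.1 on TPM (log2 after adding 1 or 0.1), other scalings, filters and cutoffs, the replicate number as a block, length offsets (lowess, span 0.5) and leaving out each library; GC offsets were chosen after seeing the data. Same-numbered libraries deviated together (correlations 0.262, 0.214 and 0.29 across genes), so the numbers of the sample titles were taken as pairs. The labels do not state such a pairing. These correlations come from the same counts as the results by pair and cannot show that the design was paired. All replicate pairs within a group differed by more than sampling noise (chi-square per degree of freedom at least 110.2).

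The 42 genes, the other gene lists and the markers were chosen with earlier results of these data known. Genes named by rule were the 42, *Myog* and the 3 with the smallest p in each other list. Values in every library were planned for *Tyms*, *Mcm2* to *Mcm7*, the nucleotide genes and *Rfc1* to *Rfc5*. Those of other genes and the genes called without 1 library or with the block were added after their values were seen. So were the single macrophage markers and the ratios of subunits. RefSeq promoters of GRCm38.p6 were searched for words. The number of libraries and their spread limit the precision.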

Additional observations from a re-analysis of the deposited data

How the results depend on the processing

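Of the values of the 42 genes under the alternatives, 794 kept their direction and their side of the cutoffs, 10 passed both cutoffs where the reported value had not, 5 (all *Tyms*) no longer passed and 29 changed sign. Of the 42 genes, 29 were lower and 3 (*Gins3*, *Pold3* and *Rfc1*) higher under every alternative run. *Orc1* changed to -0.08 with the replicate block and to -0.08 with the block and both offsets, *Mcm4* to -0.18 with the GC content offset, and *Pole* to -0.36, -0.31, -0.34 and -0.29 with the length offset alone, with the block and length, with both offsets and with the block and both offsets. *Pole2* changed to 0.03 with the length offset and 0.04 with the block and length. *Pold1* changed to 0.26 with the GC content offset, 0.00 with both offsets, 0.08 with the block and both offsets and 0.05 and 0.07 with limma on log2(TPM + 1) and log2(TPM + 0.1). *Pola1* changed to 0.19 and *Rrm1* to 0.08 with total counts, and *Pola1* to 0.09 and 0.10 with limma. Leaving out 1 library changed the sign of *Cdt1* (-0.26), *Pola1* (0.66), *Lig1* (-0.18) and *Uhrf1* (-0.28) without dCas9-KRAB replicate 1, of *Pold1* (0.04) without dCas9-KRAB replicate 2, of *Mcm4* (-0.16), *Pole* (-0.02), *Lig1* (-0.28) and *Uhrf1* (-0.43) without dCas9-KRAB-En5 replicate 2, and of *Pola1* (0.46) and *Rrm1* (0.17) without dCas9-KRAB-En5 replicate 3. None of these values was called. Over the 6 such fits the values ran from -0.26 to 0.71 for *Cdt1*, -0.16 to 0.70 for *Mcm4*, -0.50 to 0.66 for *Pola1*, -0.82 to 0.04 for *Pold1*, -0.02 to 1.02 for *Pole*, -0.28 to 0.45 for *Lig1*, -0.40 to 0.17 for *Rrm1* and -0.43 to 0.52 for *Uhrf1*.

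Leaving out each library gave 0 to 6 of the 42 genes lower and 0 to 1 higher, 216 to 2134 genes lower and 6 to 1787 higher over all genes, a median of the 42 between -0.83 and -0.52 and a rank correlation with length between -0.02 and 0.20. The count of the 42 called lower was 0 with both limma fits, which called 482 and 643 genes lower over all genes. The count called higher was 1 (*Gins3*) at an adjusted p of 0.05 with or without the fold cutoff, with DESeq2, with the block and length offset, with both offsets and with the block and both offsets. Over all genes, 1380 were lower and 1069 higher at an adjusted p of 0.05, with or without the fold cutoff, 1362 and 974 with DESeq2, and 1194 and 1004 without a filter. At least 10 counts in every library left 339 lower, fewer genes being tested. The count higher was 70 with total counts, 32 and 66 with limma, 335 with the GC content offset, 492 with both offsets and 477 with the block and both offsets. The replicate block, with pairs taken from the sample numbers, gave 567 higher (976 lower) over all genes, and 1033 lower and 547 higher with the length offset; it changed no call among the 42 by itself. The rank correlation with length was -0.45 with the length offset, and -0.42 with the block and length, with both offsets and with the block and both offsets. The cause of these changes was not tested. Values without a low-count filter and on log2(TPM + 0.1) had a median over all genes of 0.18, against 0.08.

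With 3 libraries in each group and a wide spread among them, the log2 fold changes of the 42 genes had an SE of 0.40 to 1.13, which limits what could be called. The groups also differed in their muscle markers, in some macrophage markers and in depth, with which the fold changes cannot be told apart. In addition, 1 library stood apart from the rest.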
